A study of Homo sapiens with 6 samples.

Results

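The kallikreins of the epidermis were followed by their probe sets on Affymetrix arrays in HaCaT, a human keratinocyte line that became immortal spontaneously. Every probe set whose platform annotation gave 1 of 9 gene symbols (KLK5, KLK6, KLK7, KLK8, KLK10, KLK11, KLK13, KLK14 and SPINK5) was taken. This gave 13 probe sets of 8 genes, all kallikreins, among 54613 probe sets in all. SPINK5 has no probe set named for it in the annotation used here and has no value. A probe set annotated to both KLK8 and KLK9 was left out of the comparison.

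The 3 pressure-treated arrays come from HaCaT cells held in an incubator at a pressure gradient of 125 mmHg below ambient for 12 h (negative pressure), and the 3 control arrays from HaCaT cells held at ambient pressure for as long. Both groups were grown in the same medium with serum, and the labels name 3 biological replicates per group without saying whether these were set up on separate days. HaCaT is 1 cell line, so it holds none of the other cell types of skin. Precision is limited by having 3 arrays in each group.

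Tissue kallikreins are secreted serine proteases, encoded side by side on chromosome 19 and made as inactive precursors that need a cut to become active. In the epidermis they form a cascade in which one kallikrein activates another, and together they cut the corneodesmosomes that hold the outermost cells, so that the skin surface is shed. SPINK5 encodes LEKTI, the inhibitor that restrains them, and its loss causes Netherton syndrome, a disorder of skin shedding and barrier.

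The stretches before the start sites of KLK6, KLK7 and KLK10 are shown because the 3 largest log2 changes among the kallikrein probe sets belong to these genes. They are the 250 bases upstream of the first start that the RefSeq promoter table lists for each gene, in GRCh38.p14, on the minus strand, read 5′ to 3′, with GC boxes in capitals. They lie at chr19:50969592-50969841 for KLK6, chr19:50983918-50984167 for KLK7 and chr19:51019862-51020111 for KLK10.
KLK6: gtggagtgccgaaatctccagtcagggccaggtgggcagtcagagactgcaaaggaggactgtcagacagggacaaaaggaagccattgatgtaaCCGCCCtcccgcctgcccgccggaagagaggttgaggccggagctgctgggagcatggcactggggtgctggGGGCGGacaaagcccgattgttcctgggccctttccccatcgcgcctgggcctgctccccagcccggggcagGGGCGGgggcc
KLK7: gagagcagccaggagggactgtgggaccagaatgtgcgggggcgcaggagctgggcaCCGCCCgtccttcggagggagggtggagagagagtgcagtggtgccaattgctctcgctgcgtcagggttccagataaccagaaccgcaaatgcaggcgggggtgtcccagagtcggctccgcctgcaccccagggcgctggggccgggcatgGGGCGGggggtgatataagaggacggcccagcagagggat
KLK10: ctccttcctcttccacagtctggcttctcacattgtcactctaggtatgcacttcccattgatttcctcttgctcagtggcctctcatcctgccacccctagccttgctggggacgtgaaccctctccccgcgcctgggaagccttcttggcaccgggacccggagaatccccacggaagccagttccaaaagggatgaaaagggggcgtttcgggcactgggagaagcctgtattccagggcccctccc

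The table held 8 of the 9 genes with 15 listed starts, some of whose windows overlap; KLK8 has no entry in it. Each 250-base window was searched on both strands for the GC box GGGCGG, the AP-1 motif TGANTCA, the TATA box TATAAA, the steroid receptor motif TGTTCT and the C/EBP motif TTGCNNAA. The GC box was found in the windows of 9 of the 15 starts, and in 42.6% of 35116 promoter windows in the table. These 9 starts belong to KLK6, KLK7, KLK11, KLK13 and KLK14, and KLK11 and KLK14 also had a listed start without it. The GC box occurred 3 times before KLK6 and 2 times before the KLK7 start shown. The KLK10 window held no match to any of the 5 motifs. The AP-1 and C/EBP motifs had no match in the 15 windows, and were found in 6.57% and 9.05% of all windows. The TATA box and the TGTTCT motif matched within the SPINK5 window alone, and were found in 10.7% and 12.4% of all windows.

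Before the members, the arrays themselves were compared. The arrays numbered 3 stood apart on the first principal component of all probe sets, which carried 40.4% of the variance, at 46.8 under negative and 40.0 at ambient pressure, and the other 4 arrays lay between -24.4 and -14.8. The 2 pressure groups were separated by the second one (28.8%). Of 12 keratinocyte marker genes, 8 had a probe set named for them alone, and for all 8 the brightest probe set lay above a dim bound of 6.29 on the log2 scale. This bound is the 95th percentile of the mean level over 65 probe sets of genes restricted to other tissues. The 4 brightest of these belong to MBP, a myelin gene that is also transcribed in many other cell types, and without MBP the bound was 4.72. Of the probe sets of fibroblast and melanocyte markers, 27 of 28 and 12 of 12 lay at or under the bound of 6.29. Counted in the same way, 6 of the 20 probe sets of keratinocyte markers did. Above the bound without MBP lay 1 fibroblast, 3 melanocyte and 16 keratinocyte probe sets. The summed log2 level of the 28 fibroblast probe sets ran from 78.6 to 81.1 under negative pressure and from 77.2 to 79.2 at ambient pressure, and that of the 12 melanocyte probe sets from 39.4 to 40.4 under negative pressure and from 39.4 to 40.1 at ambient pressure. Their part in the results was not tested. In RNA of whole cultures, fewer cells with a transcript and less of it per cell cannot be told apart.

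The comparison asked whether transcripts of the shedding proteases differed after 12 h of negative pressure. Of the 13 kallikrein probe sets, 11 stood higher (51.5% of all probe sets did) and 2 lower on average under negative pressure, all by at most 1.37-fold, and none passed an adjusted p of 0.05. KLK10, KLK7 and KLK6 each had 1 probe set 1.34-fold to 1.37-fold higher whose groups did not overlap. Those of KLK6 and KLK7 were dim, that of KLK7 only with MBP in the bound. The other probe set of KLK10, also dim, was 1.35-fold lower, again without overlap. Of all probe sets, 15.0% had no overlap in either direction. The brightest probe set of KLK8 stood lower. The test was limma on all probe sets with Benjamini-Hochberg adjustment, in which 262 of 54613 probe sets (0.480%) passed, 151 higher (0.276%) and 111 lower (0.203%). At an unadjusted p under 0.05 in limma, 5 of the 13 passed, 4 higher and 1 lower, against 9.86% of all probe sets, 5.55% higher and 4.31% lower, and no other fit tried brought a member past an adjusted p of 0.05.

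The 3 negative pressure arrays lay wholly above the 3 ambient arrays for 6 of the 13 probe sets and wholly below for 1, where 8.44% of all probe sets lay wholly above and 6.56% wholly below. The median log2 change of the 13 was 0.19, beside 0.0062 for all probe sets. These counts describe the probe sets and are no test of them, since several measure the same gene and all come from the same 6 RNA samples. Of the 13, 4 lay above the dim bound: that of KLK5 and the brighter ones of KLK7, KLK8 and KLK10. Without MBP in the bound, the dimmer probe set of KLK7 joined them.

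**Figure D1:**
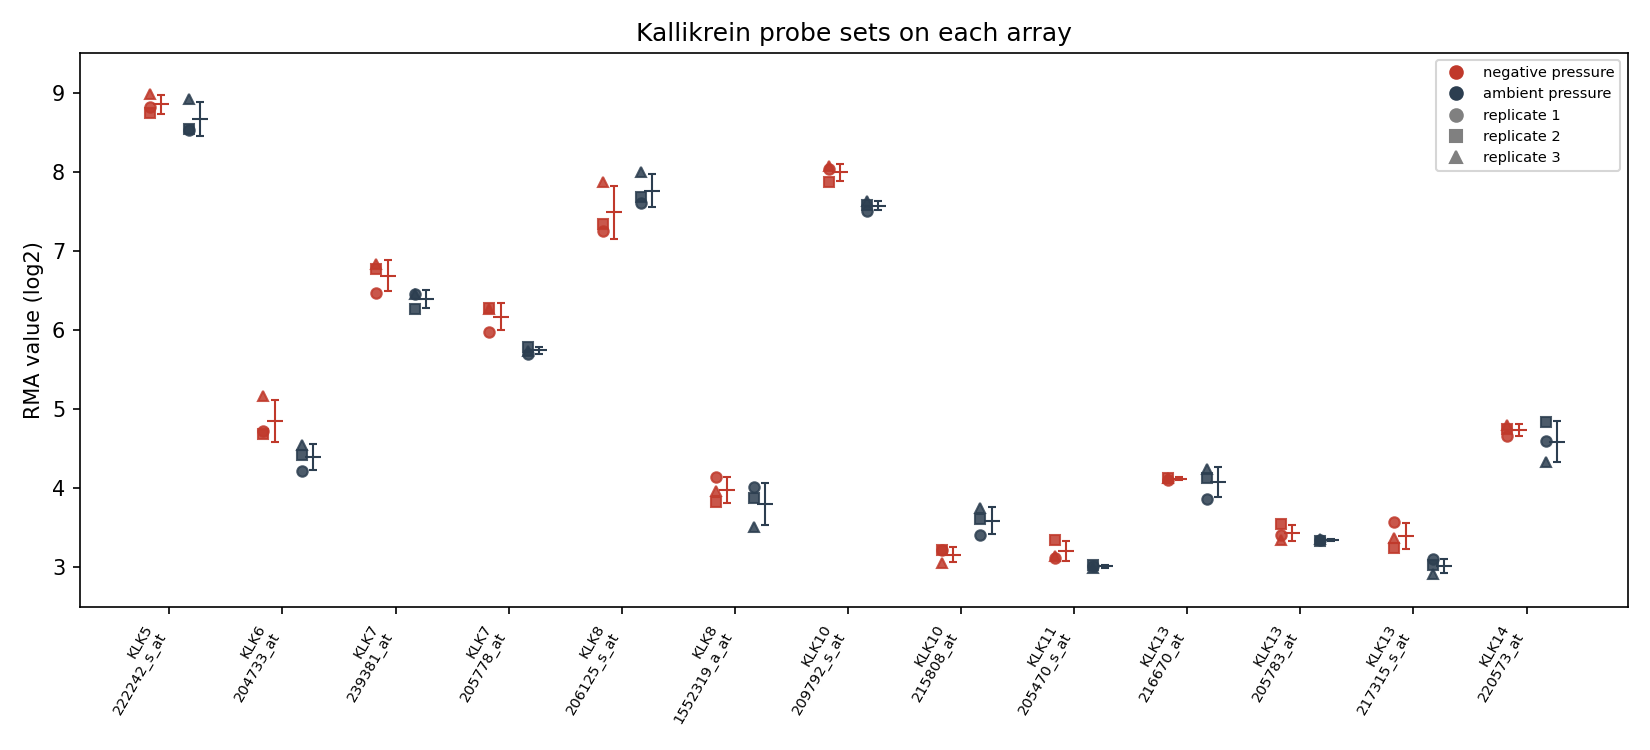
RMA values on the log2 scale (vertical axis) of the 13 kallikrein probe sets on each array, negative pressure in red to the left of ambient pressure in dark blue, with the replicate given by the marker and the mean and SD of 3 arrays as a bar beside the points. KLK10 209792_s_at, KLK7 205778_at and KLK6 204733_at have all 3 negative pressure arrays above the ambient ones, and KLK5 and KLK8 have overlapping groups.

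KLK5, a trypsin-like protease that starts the cascade by activating itself and then KLK7 and KLK14, had 1 probe set, 222242_s_at. Its log2 values were 8.82, 8.75 and 8.99 under negative pressure, against 8.53, 8.55 and 8.91 at ambient pressure (replicates 1 to 3). Ambient replicate 3 lay among the negative pressure arrays, so the groups overlapped, and the arrays numbered 3 were the highest of each group. The means were 8.85 ± 0.12 under negative and 8.66 ± 0.22 at ambient pressure (SD, n = 3 each). The log2 change was 0.19 ± 0.14 (SE; 95% interval -0.13 to 0.51; limma adjusted p = 0.793), and 0.24 without both arrays numbered 3 (limma adjusted p = 0.365). Leaving out 1 array gave changes from 0.12, without negative pressure replicate 3, to 0.31, without ambient replicate 3.

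KLK7, the chymotrypsin-like enzyme of the stratum corneum that cuts corneodesmosin and desmocollin 1, had 2 probe sets. Probe set 205778_at had log2 values of 5.97, 6.28 and 6.26 under negative pressure, against 5.70, 5.79 and 5.74 at ambient pressure. It was dim, but not with MBP left out of the bound. The groups did not overlap, and each negative pressure array lay above the ambient array of its number, by 0.28, 0.49 and 0.52. The fitted log2 change was 0.43 ± 0.12, a 1.35-fold difference (SE; 95% interval 0.15 to 0.71; limma adjusted p = 0.226). Probe set 239381_at gave 6.46, 6.77 and 6.83 under negative pressure, against 6.45, 6.27 and 6.45 at ambient pressure. Here the groups were only just apart, with replicates numbered 1 differing by 0.0073. Its log2 change was 0.30 ± 0.14 (SE; 95% interval -0.011 to 0.60; limma adjusted p = 0.532). The changes of the 2 probe sets differed by -0.13 (239381_at minus 205778_at; exact two-sided permutation test over arrays, p = 0.4, adjusted p = 0.48 over the 6 pairs of probe sets that share a gene).

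KLK14, a trypsin-like kallikrein that can activate the receptor PAR2, had 1 dim probe set, 220573_at. It gave 4.66, 4.75 and 4.80 under negative pressure, against 4.59, 4.84 and 4.33 at ambient pressure. The negative pressure arrays lay inside the ambient range. The log2 change was 0.15 ± 0.15 (SE; 95% interval -0.18 to 0.48; limma adjusted p = 0.863), and it was -0.014 without both arrays numbered 3. It ran from 0.018, without ambient replicate 3, to 0.27, without ambient replicate 2.

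KLK6, a trypsin-like protease also known from the central nervous system as neurosin, had 1 dim probe set, 204733_at. Its log2 values were 4.72, 4.68 and 5.16 under negative pressure, against 4.22, 4.43 and 4.55 at ambient pressure. The groups did not overlap, and in each group replicate 3 was the highest. Its means were 4.85 ± 0.27 under negative and 4.40 ± 0.16 at ambient pressure (SD, n = 3 each). The log2 change was 0.46 ± 0.16, or 1.37-fold, the largest of the 13 with all arrays in (SE; 95% interval 0.097 to 0.81; limma adjusted p = 0.344). That place did not hold when some single arrays were left out. Without negative pressure replicate 3 the change of KLK6 was 0.30, below the 0.38 of both KLK7 205778_at and KLK10 209792_s_at under the same setting. The dim KLK13 217315_s_at stood higher still there, at 0.39. Without ambient replicate 1 the change of KLK6 was 0.37, below KLK13 217315_s_at at 0.42, KLK7 205778_at at 0.41 and KLK10 209792_s_at at 0.39. Leaving out negative pressure replicate 1 put it at 0.523, just below KLK7 205778_at at 0.526. Without both arrays numbered 3 it was 0.38, also below KLK10 at 0.41.

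KLK10, a kallikrein with little protease activity of its own that was first described as a gene silenced in breast cancer cells, had 2 probe sets that stood on opposite sides. Probe set 209792_s_at gave 8.03, 7.88 and 8.07 under negative pressure, against 7.51, 7.58 and 7.62 at ambient pressure. The groups lay apart with small spreads, 7.99 ± 0.10 under negative and 7.57 ± 0.06 at ambient pressure (SD, n = 3 each). Its log2 change was 0.42 ± 0.11, or 1.34-fold, with the smallest p of the 13 (SE; 95% interval 0.16 to 0.68; limma adjusted p = 0.188), and it stayed between 0.38 and 0.48 when any 1 array was left out. The other probe set, 215808_at, was dim and gave 3.22, 3.22 and 3.05 under negative pressure, against 3.41, 3.61 and 3.75 at ambient pressure. All 3 negative pressure arrays were the lower ones, with a log2 change of -0.43 ± 0.13 (SE; 95% interval -0.72 to -0.14; limma adjusted p = 0.250). Within arrays the changes of the 2 probe sets differed by 0.85 (209792_s_at minus 215808_at; permutation test over arrays, exact and two-sided, p = 0.1, with 0.1 the lowest value possible here, adjusted p = 0.48 over 6 pairs). The mean of the 2 probe sets therefore stood at -0.0029 (limma adjusted p = 0.995), an average that weights the dim probe set like the bright one.

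KLK8, a trypsin-like kallikrein known as neuropsin for its role in the mouse brain and also made in the upper epidermis, was the gene whose brightest probe set stood lower. Probe set 206125_s_at gave 7.25, 7.34 and 7.87 under negative pressure, against 7.61, 7.68 and 7.997 at ambient pressure. Negative pressure replicate 3 lay above ambient replicates 1 and 2, so the groups overlapped. Array by array of the same number, the difference was negative each time, at -0.36, -0.35 and -0.13. The log2 change was -0.28 ± 0.18 (SE; 95% interval -0.69 to 0.14; limma adjusted p = 0.741), and -0.35 without both arrays numbered 3 (limma adjusted p = 0.205). Leaving out negative pressure replicate 3 gave -0.47, and leaving out either negative pressure replicate 1 or ambient replicate 3 gave -0.16. The dim probe set 1552319_a_at had overlapping groups and stood at 0.18 ± 0.16 (SE; limma adjusted p = 0.838), with 0.03 to 0.29 when 1 array was left out.

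KLK11 and KLK13, both secreted kallikreins of the upper epidermis, were dim in all 4 of their probe sets. KLK11 205470_s_at gave 3.13, 3.35 and 3.15 under negative pressure, against 3.01, 3.03 and 2.99 at ambient pressure. Its groups did not overlap, and its log2 change was 0.19 ± 0.11 (SE; limma adjusted p = 0.679). The 3 probe sets of KLK13 differed: 217315_s_at had groups that did not overlap, 3.58, 3.25 and 3.37 under negative pressure against 3.10, 3.03 and 2.92 at ambient pressure, with a log2 change of 0.38 ± 0.13 (SE; limma adjusted p = 0.320). The other 2, 205783_at and 216670_at, had overlapping groups and stood at 0.09 and 0.04 (limma adjusted p = 0.903 and 0.966). Probe sets with the suffix _s_at, here those of KLK5 and KLK11 and 1 each of KLK8, KLK10 and KLK13, match several transcripts, and whether related kallikreins gave part of their signal was not tested.

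**Figure D2:**
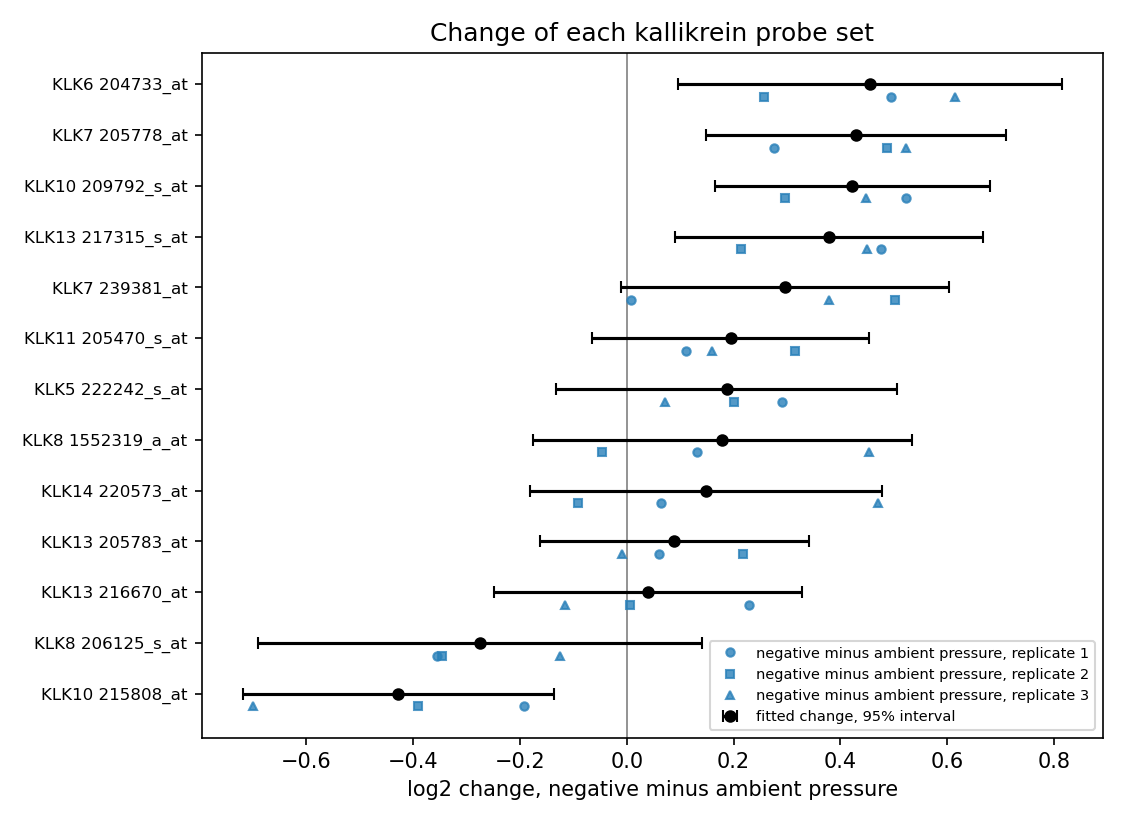
Log2 change, negative minus ambient pressure (horizontal axis), of each kallikrein probe set with its 95% interval in black from limma, unadjusted, and the difference between arrays of the same replicate number in blue. The intervals of KLK6 204733_at, KLK7 205778_at, KLK10 209792_s_at and KLK13 217315_s_at lie above 0 and that of KLK10 215808_at below 0, while 8 intervals include 0.

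With the replicate number as a block no member passed either, where 1242 probe sets (2.27%) did. The smallest blocked adjusted p-values were 0.0904 for KLK6 204733_at, 0.0959 for KLK7 205778_at and 0.0966 for KLK10 209792_s_at, all higher under negative pressure. At a threshold of 0.1, a fit chosen after seeing the data, these 3 of 13 passed, beside 4.54% of all probe sets. The 95% intervals of all 13, each unadjusted, lay between -0.72 and 0.81 on the log2 scale, inside a 2-fold change in either direction. For the 9 dim probe sets, whose values cannot be told from background by the bound with MBP, this bounds the signal and not the transcript. KLK7 205778_at is among them only with MBP in the bound, so for this probe set that limit depends on the bound. A p that misses the threshold does not show that the levels were the same.

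By the root mean square difference between profiles centred on their own means over the 6 arrays, the genes most like KLK10 209792_s_at among 7183 genes above the dim bound were APBA3 (0.041), ANKZF1 (0.043) and SPG21 (0.043). Their log2 changes were 0.40, 0.40 and 0.38, none of them past the threshold (limma adjusted p = 0.227, 0.190 and 0.239).

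In the order of the RefSeq gene table, the kallikreins lie on chromosome 19 between ACP4 and CTU1, and the 8 measured epidermal members occupy the stretch from KLK5 to KLK14, with KLK9 and KLK12 among them. The kallikreins at the other end, KLK1, KLK15, KLK3, KLK2 and KLK4, include KLK3, the prostate-specific antigen, and were dim here. All 21 probe sets of the other kallikreins (7 of 8 listed genes; KLKB1, the plasma kallikrein gene, lies elsewhere and is among them) were at or under the bound, 5 of them above it when MBP is left out, and their median log2 change was 0.0049, ranging from -0.24 to 0.24. None passed, and 0 had an unadjusted p under 0.05 in limma, beside 9.86% of all probe sets. KLK12, between KLK11 and KLK13, stood at -0.10 (limma adjusted p = 0.907). Of the flanking genes with a probe set, SIGLEC9 stood at 0.33 (limma adjusted p = 0.347), ACP4 at 0.14, GPR32 at -0.05 and SIGLEC7 at -0.07, all of them dim.

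**Figure D3:**
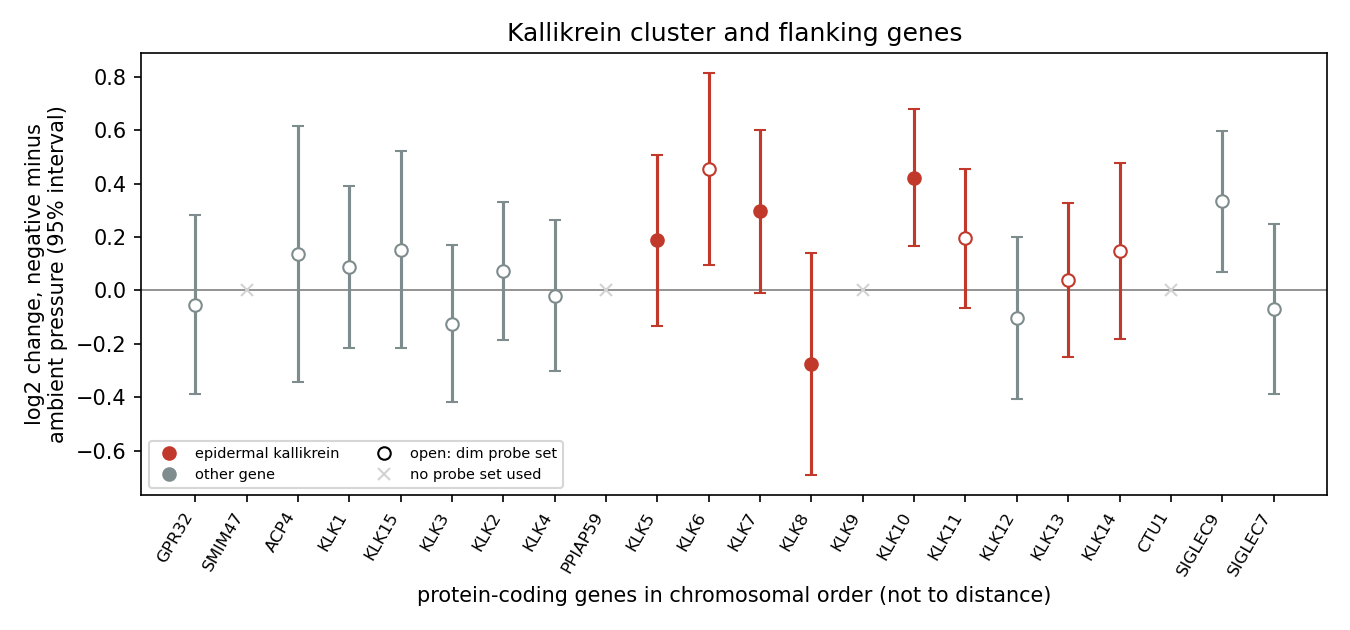
Log2 change, negative minus ambient pressure, with its 95% interval (vertical axis) for the brightest probe set of each protein-coding gene in chromosomal order around the kallikrein cluster (horizontal axis, equal spacing). Epidermal kallikreins are red, other genes grey, open symbols are dim, and crosses mark genes with no probe set used; KLK6 and KLK10 stand highest and KLK8 lowest.

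Proteases that act upstream of or beside the kallikreins were listed as 20 genes with 29 probe sets. None passed, and the median log2 change was 0.10. An unadjusted p under 0.05 in limma was found for 6, all higher, beside 5.55% higher of all probe sets. The list's smallest adjusted p was 0.0520, for CTSC 225646_at, the activator of several leukocyte serine proteases, at 0.75 ± 0.13 (SE), singled out after its values were seen. With the replicate block 4 probe sets of this list rose, where 2.27% of all probe sets passed in either direction. They were those of CTSC 225646_at (limma blocked adjusted p = 0.0148), TMPRSS4, which was dim (0.0164), the urokinase gene PLAU 211668_s_at (0.0287) and PRSS8 (0.0337). PRSS8, or prostasin, gave 7.19, 7.13 and 7.77 under negative pressure, against 6.53, 6.70 and 7.08 at ambient pressure, a log2 change of 0.59 ± 0.20 (SE; limma adjusted p = 0.332). All 3 negative pressure arrays were the higher ones, as for 8.44% of all probe sets. CTSC was not uniform, since its brightest probe set, 201487_at, and the dim 231234_at both stood at -0.03. Its remaining probe set, 225647_s_at, stood at 0.47 (limma adjusted p = 0.137). ST14, or matriptase, which can activate kallikrein precursors, stood at 0.09 (limma adjusted p = 0.911), the cathepsin gene CTSV at 0.06 (0.941) and the mesotrypsin gene PRSS3 at -0.18 (0.866).

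Inhibitors of epidermal proteases were measured for 14 of 15 genes with 21 probe sets. None passed with or without the block, and the median log2 change was 0.07. An unadjusted p under 0.05 in limma was found for 6 (4 higher and 2 lower), beside 9.86% of all probe sets. SPINT1 and SPINT2, which inhibit matriptase and prostasin, had groups that did not overlap, at 0.33 ± 0.13 and 0.30 ± 0.11 (SE, limma adjusted p = 0.421 and 0.359). Over all probe sets, 8.44% lay wholly above and 6.56% wholly below. The cystatin gene CST6, which restrains cathepsins of the cornified layer, stood at -0.15 (limma adjusted p = 0.870) with its brightest probe set. Its other, dim probe set 231248_at stood at -0.46 ± 0.14 with groups that did not overlap, the smallest adjusted p of this list (SE; limma adjusted p = 0.251, and 0.0674 with the block). SPINK6, a kallikrein inhibitor related to LEKTI, stood at -0.18 and A2ML1, which inhibits KLK7, at -0.01, both dim (limma adjusted p = 0.848 and 0.993).

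Receptors and substrates of the kallikreins were measured for 14 of 16 genes with 24 probe sets, and F2RL1, the gene of PAR2, was among those with no probe set named for it alone. None passed, and 6 had an unadjusted p under 0.05 in limma, 3 higher and 3 lower, beside 9.86% of all probe sets. DSG1 and CDSN, the corneodesmosomal proteins that kallikreins cut, were dim and stood at -0.31 and -0.15 (limma adjusted p = 0.694 and 0.856), and JUP, or plakoglobin, stood at 0.13 (0.826). With the block, in which 2.27% of all probe sets passed, 1 rose, PKP1 221854_at (0.55, limma blocked adjusted p = 0.0498), and 3 fell. The 3 were FLG, the filaggrin gene (-0.85, dim, limma blocked adjusted p = 0.0125), and both probe sets of IL1B, a cytokine whose precursor KLK7 can cut (-0.64 and -0.62; limma blocked adjusted p = 0.0280 and 0.0323). IL1B 205067_at gave 10.28, 10.05 and 10.11 under negative pressure, against 10.74, 10.87 and 10.76 at ambient pressure, so that its groups lay apart. Its adjusted p was 0.0610 over all probe sets and 0.0413 in limma with 1 probe set per gene, a fit in which 0.920% of genes passed. PKP1, FLG and IL1B were singled out after their values were seen.

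Genes of granular and cornified differentiation, the stage at which kallikreins are made in skin, were measured for 19 of 20 genes with 25 probe sets. None passed with or without the block, and the median log2 change was 0.05. An unadjusted p under 0.05 in limma was found for 4 (3 higher and 1 lower), beside 9.86% of all probe sets. IVL, the envelope protein involucrin, stood at -0.01, the transglutaminase gene TGM1 at 0.17 and the keratin genes KRT1 and KRT10 at 0.06 and -0.06 (limma adjusted p = 0.989, 0.854, 0.949 and 0.935), with IVL, TGM1 and KRT1 dim. The basal keratin genes KRT5 and KRT14 stood at 0.33 and 0.06 (limma adjusted p = 0.417 and 0.942).

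**Figure D4:**
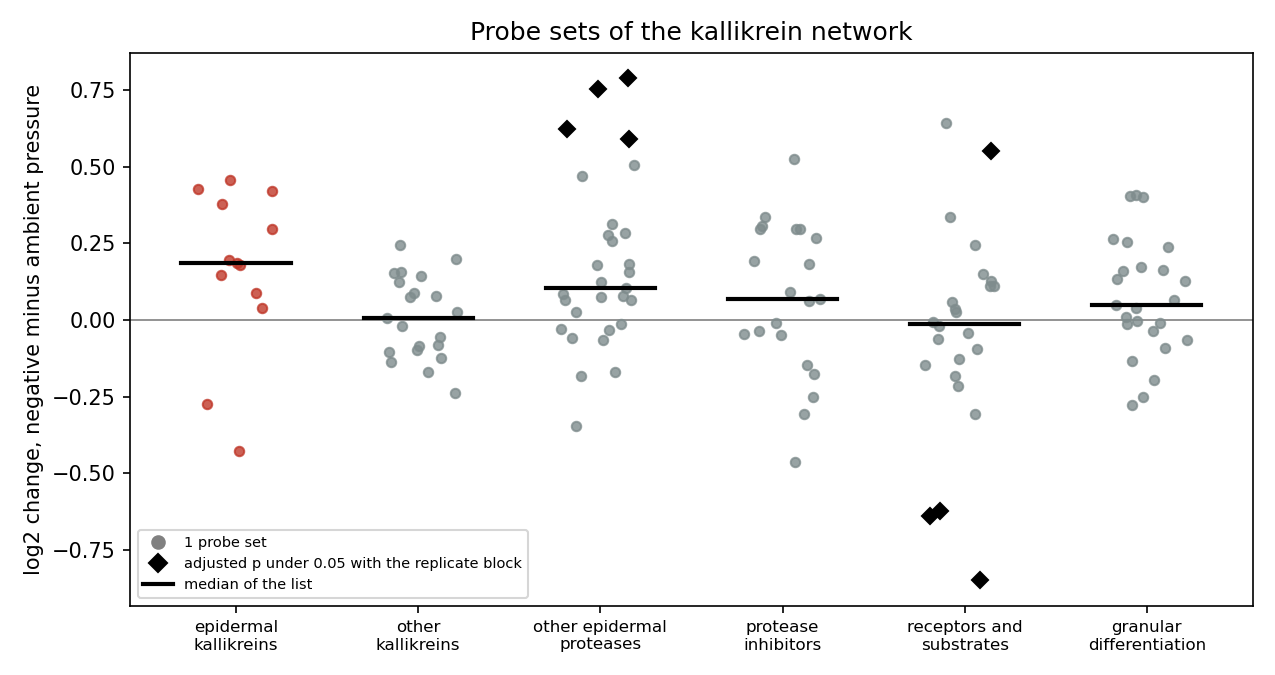
Log2 change, negative minus ambient pressure (vertical axis), of every probe set of the epidermal kallikreins (red) and of 5 lists of related genes (grey), with list medians as bars. Black diamonds, 4 among the other epidermal proteases and 4 among the receptors and substrates, mark probe sets with an adjusted p under 0.05 in limma with the replicate block, and the epidermal kallikreins have none.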

How the data were processed

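Total RNA from 6 HaCaT cultures was measured, 1 array each, on an Affymetrix platform with 54675 probe sets, 62 of them controls that were left out. The values deposited are on the log2 scale, and the authors made them with RMA (Affymetrix Expression Console 1.2 is the software named by the submitters' processing notes). They ranged from 0.890 to 13.4. Neither batches nor detection calls were used here.

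The platform annotation named 1 gene for 41091 probe sets, several for 1801 and none here for 11721. Probe sets with several names gave no gene a value. Negative pressure was set against ambient pressure with limma 3.58.1 in R 4.3.3 (lmFit and eBayes, no trend, no block, no filter on low values) on all 54613 probe sets, with Benjamini-Hochberg adjustment over all of them. The test was checked on simulated data with independent noise for each probe set and array. Such data lack the differences shared by whole arrays, so the check cannot show how the test behaves on these arrays. Probe sets are the unit because every probe set of a member was taken; where a gene outside the members has 1 value, it is that of its brightest probe set. By rule, the text names the members, up to 3 genes per list past the threshold (there were none) and genes set by name. Outside that rule, CTSC, TMPRSS4, PLAU, PKP1, FLG, IL1B, DSG3, PERP, COL1A1 and the second CST6 probe set were chosen after their values were seen.

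Both groups are numbered 1 to 3. Deviations from the group means correlated across probe sets at 0.22, 0.23 and 0.47 between arrays numbered 1, 2 and 3, all above 0.1. Negative pressure replicate 1 with ambient replicate 2, at 0.15, and negative pressure replicate 2 with ambient replicate 1, at 0.36, were also above 0.1. Unlike pairs with a replicate 3 lay between -0.42 and -0.26. Deviations within a group of 3 sum to 0, so arrays numbered 3 that stand apart make the others correlate. The check therefore cannot show whether numbers 1 and 2 pair the cultures, and no label says that a number marks a shared day. The calls, intervals and permutation tests reported are unpaired. Values with the block, which is the paired fit, stand beside results whose call they change.

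Members and gene lists were chosen with earlier results of these data known. Alternatives were the block, other normalizations, filters, variance models, array weights, units and arrays left out. Promoter windows came from RefSeq.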

Additional observations from a re-analysis of the deposited data

How the results depend on the processing

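No kallikrein probe set passed in either direction under any setting with an adjusted p under 0.05. This says little about stability, since several settings passed very few probe sets of any kind. With the replicate block and an adjusted p under 0.1, 3 were higher. Of 194 values of single kallikrein probe sets under the alternatives, 190 kept their sign. The exceptions were KLK14 220573_at with array weights (-0.0045) and without both arrays numbered 3 (-0.014), KLK10 with the mean of its probe sets (-0.0029), and KLK13 216670_at, which ran from -0.065 to 0.12 when 1 array was left out. The cause was not tested. The median change of the members was 0.30 with dim probe sets left out by the bound without MBP, which keeps 5 of the 13. Leaving out dim probe sets leaves 4 members by the first bound.

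Over all probe sets, 1242 passed with the replicate block, 1516 with array weights, 151 with dim probe sets left out, 600 without both arrays numbered 3, 625 at an adjusted p under 0.1 and 2477 at 0.1 with the block. Leaving out 1 array gave from 1 (without replicate 2 of either group) to 235 (negative pressure replicate 3 left out). The count was 8 with negative pressure replicate 1 left out, 6 with ambient replicate 1 and 98 with ambient replicate 3 left out. Among the other epidermal proteases, 4 probe sets passed with the block, 5 with array weights, 2 with dim probe sets left out by either bound (CTSC and PLAU) and 1 without both arrays numbered 3 (PLAU). Among receptors and substrates, 4 passed with the block, 3 with array weights, and 1, IL1B, with quantile normalization repeated, cyclic loess, either dim filter, 1 probe set per gene, or trend and robust variance. Of the keratinocyte markers, 1 passed with the block (DSG3), 2 with array weights (DSG3 and PERP) and 1 without both arrays numbered 3 (PERP), and of the fibroblast markers 1 with the block (COL1A1 202310_s_at). The cause was not tested. Many members are dim, and with no detection calls a dim value cannot be told from background.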

Other observations

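The probe set annotated to both KLK8 and KLK9, which could be given to neither, was dim at 4.04, 4.14 and 4.48 under negative pressure, against 4.28, 4.30 and 4.25 at ambient pressure. Its log2 change was -0.06 ± 0.14 (SE; limma adjusted p = 0.954).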
